A study of Mus musculus with 6 samples.

Results

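The genes described are 35 that encode the proteins of glucose uptake, glycolysis, the pentose phosphate pathway and the glycerol-3-phosphate shuttle. They were chosen by symbol in a mouse GRCm38 annotation, and all 35 have a row in the count tables, among 52550 gene rows in all. The samples were cardiomyocytes taken from mouse hearts on postnatal day 1, enriched by magnetic sorting, cultured for 48 hours with serum (5% horse, 10% fetal bovine) and for a further 24 hours without it. There were 3 libraries of each genotype, control and GR-cKO, the latter a cardiomyocyte-specific deletion of the glucocorticoid receptor gene Nr3c1, and each counted mRNA by tags near the 3' end. The labels give the control genotype only as control and name neither the deleted exon, nor the driver of the deletion, nor the strain. Both groups carry the same treatment label, so the labels give no difference in treatment between them. This does not show that the cells met no glucocorticoid. The question the design asks is how cultured newborn cardiomyocytes with and without the receptor differ in expression.

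Glucose enters a cell through facilitative carriers, is trapped by hexokinase, and is split and oxidised by glycolysis to pyruvate, which lactate dehydrogenase can convert to lactate. A side branch, the pentose phosphate pathway, makes NADPH and ribose, and the glycerol-3-phosphate dehydrogenases link glycolysis to lipid synthesis and to mitochondria. Most steps exist as several isoenzymes, with forms typical of striated muscle beside forms that many tissues use. The heart relies largely on glycolysis and lactate before birth and moves to fatty acids afterwards.

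The libraries held 19371508 to 22583596 gene counts each, and 18364 to 19242 genes had a count. Nr3c1 was at 68.1, 73.8 and 72.3 CPM (counts scaled to the size of the library) in control and at 46.1, 42.7 and 44.1 CPM in GR-cKO, lower in all 3 GR-cKO libraries (log2 fold change -0.69, edgeR quasi-likelihood test, adjusted p = 3.3e-06). Tags near the 3' end may lie outside what was deleted, so this level is no measure of how much working receptor was left. The groups also differed in sex-linked RNA. Xist stood at 271 to 292 CPM in control and at 0 to 0.0995 CPM in GR-cKO, while Ddx3y, Eif2s3y, Kdm5d and Uty together stood at 25.6 to 28.5 CPM in control and at 115 to 130 CPM in GR-cKO. Each control library thus held Xist together with Y-linked RNA, as a mix of cells of both sexes would, while the GR-cKO libraries held almost no Xist. Sex and genotype therefore cannot be told apart in these libraries. Pgk1, G6pdx and Pfkfb1 are the members on the X chromosome.

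Of the 35 genes, 16 rose in GR-cKO and none fell. The risers ran along the route from glucose entry to lactate: the carriers Slc2a1 and Slc2a3, both hexokinases, the isomerase Gpi1, the phosphofructokinase subunits Pfkl and Pfkp, the regulator Pfkfb3, both aldolases, Tpi1, Gapdh, Pgk1, Pgam1, Pkm and Ldha. The steps of phosphoglycerate mutase and enolase differed from this, because their most counted isoforms, Pgam2 and Eno3, did not pass. The levels of Pgam1 and Eno1, the other isoforms of these steps, are uncertain because of close copies in the genome. None of the 4 pentose phosphate enzymes and 3 glycerol-3-phosphate dehydrogenases among the 35 genes passed. All 35 genes had enough counts to be tested, and the test was edgeR's quasi-likelihood test with Benjamini-Hochberg adjustment over all 14386 genes tested and a threshold of 0.05. Of those 14386 genes, 7.63% rose and 7.19% fell by the same rule, 14.8% in all. The 35 genes were chosen with earlier results of these data known, so this comparison is not an independent test. With the ERCC spike-in RNAs as the scale, all genes tested split into 1355 higher and 522 lower, against 1097 and 1035, while 16 of the 35 genes again rose and none fell. The median log2 fold change was 0.17 over the 35 genes and -0.01 over all genes tested. With 16 risers and 19 other genes, the members' median falls near the gap between them, and it moved to 0.46 without control replicate 2 and to 0.26 without GR-cKO replicate 3. At an unadjusted p below 0.05, 17 of the 35 genes were higher and 3 lower (Tkt, Gpd1l and Gpd2), against 13.1% and 13.0% of all genes tested, and DESeq2 called 16 higher and none lower. The 35 genes summed to 0.444% ± 0.00958 of a control library's gene counts and to 0.633% ± 0.0153 of a GR-cKO library's (SD, n = 3 each). The two-sided exact permutation p was 0.1, which 3 libraries against 3 cannot go below. Mitochondrially encoded genes took 4.51% to 4.81% of gene counts in control and 3.76% to 4.004% in GR-cKO. With those genes left out of the total, the 35 genes differed by 0.193 percentage points, against 0.189 with them.

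**Figure D1:**
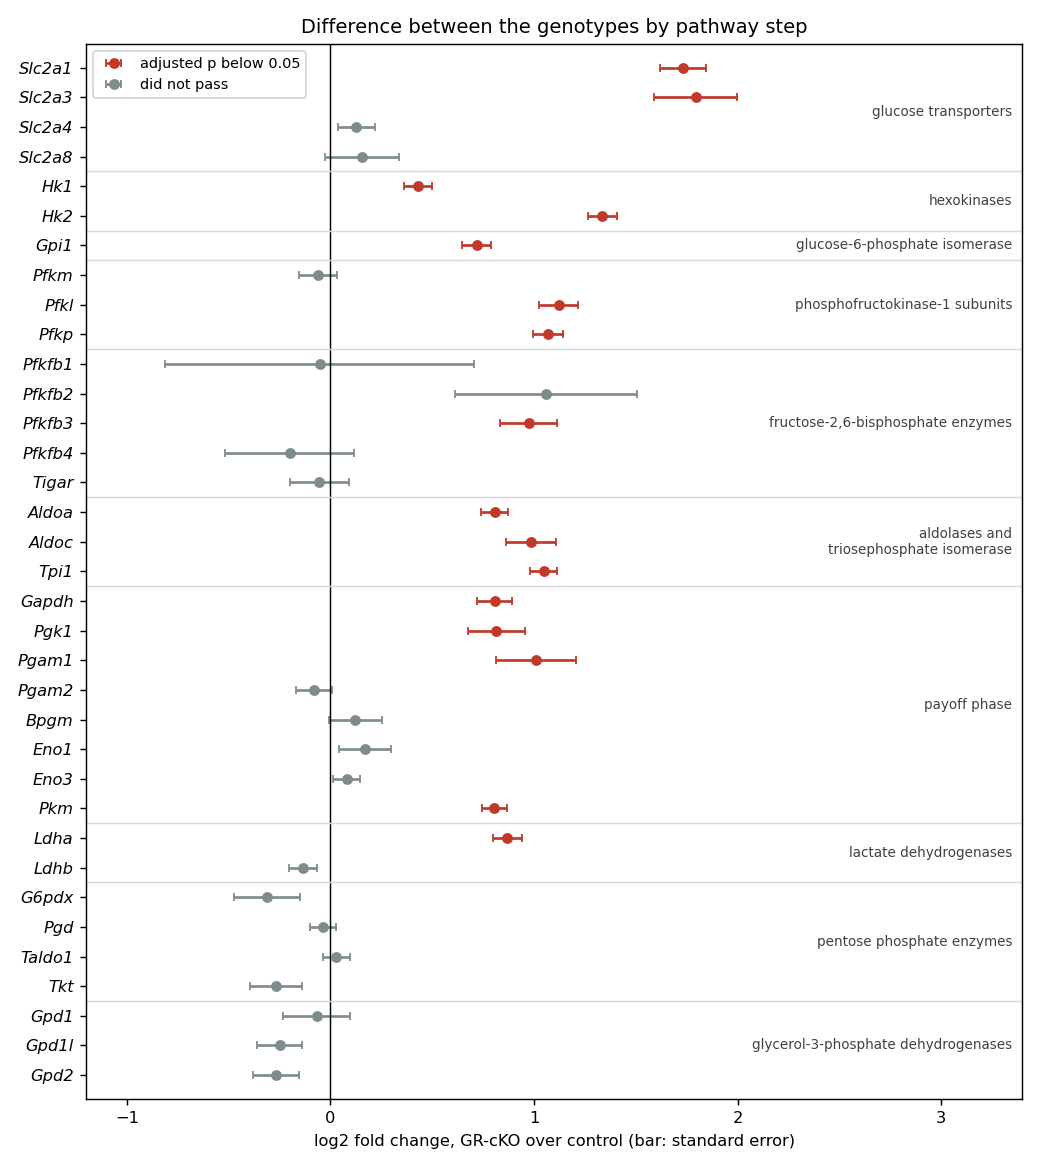
Log2 fold change of each of the 35 genes, GR-cKO over control, on the horizontal axis, with its standard error as a bar; genes are ordered by pathway step and the 16 past an adjusted p of 0.05 are in red. The red points lie between 0.43 and 1.79, and the enzymes of the pentose phosphate and glycerol-3-phosphate steps at the bottom are all grey.

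Promoter sequence from RefSeq (build GRCm38.p6, 250 bases before to 50 bases after the start of a transcript) was given for 32 of the 35 genes, all but Slc2a3, Slc2a4 and Gpd1. Because many of the genes rose together, these windows were searched on both strands for ACGTG, the core that hypoxia-inducible factors bind, and for AGAACA, an arm of the palindrome that the glucocorticoid receptor binds. ACGTG is also contained in the E-box CACGTG, which is bound by MYC and related factors. ACGTG was found in at least 1 window of 11 of the 15 risers with a window (73.3%), of 5 of the 17 genes that did not pass (29.4%) and of 21.8% of all 27025 genes with a window. Counted by window, these shares were 59.1% of 22, 24.1% of 29 and 19.6% of 32851. AGAACA was found for 4 of the 15 risers (26.7%), for 5 of the 17 genes that did not pass (29.4%) and for 21.3% of all genes. CACGTG was found for 2 of the 15 risers (13.3%), for 3 of the 17 (17.6%) and for 8.09% of all genes. The groups of genes were formed from these same data, and the windows were not matched for base content. The 27025 genes also include genes that were not among the 14386 tested here. The windows of Aldoa overlap and count the same ACGTG match more than once. A match is only a match of letters in this window, and no binding was measured. Whether any of these motifs has a part in the rises was not tested.

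The stretch from base -170 to base -26 before the RefSeq start is shown for 5 of the risers whose window holds ACGTG upstream of the start, picked to cover entry, trapping, the payoff phase and lactate, and for Ldhb and Pgam2, the other isoforms of Ldha and Pgam1, which did not pass. The phosphofructokinase subunits go the other way: Pfkm, which did not pass, holds ACGTG in its windows, and the risers Pfkl and Pfkp hold none. Capitals mark ACGTG on the printed strand or, where it lies on the opposite strand, its complement CACGT. Each is given 5′ to 3′ on the strand of its gene.
Slc2a1 (chr4:119108575-119108719, plus strand): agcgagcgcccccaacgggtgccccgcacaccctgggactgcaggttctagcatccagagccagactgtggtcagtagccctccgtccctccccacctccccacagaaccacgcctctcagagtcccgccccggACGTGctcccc
Hk2 (chr6:82774480-82774624, minus strand): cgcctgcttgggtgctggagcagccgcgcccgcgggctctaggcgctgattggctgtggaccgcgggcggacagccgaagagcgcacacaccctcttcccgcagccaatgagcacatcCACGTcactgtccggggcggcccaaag
Pgk1 (chrX:106186930-106187074, plus strand): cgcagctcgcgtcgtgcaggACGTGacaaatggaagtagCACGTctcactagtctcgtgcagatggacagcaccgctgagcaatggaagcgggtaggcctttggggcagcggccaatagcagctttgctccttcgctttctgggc
Pgam1 (chr19:41911701-41911845, plus strand): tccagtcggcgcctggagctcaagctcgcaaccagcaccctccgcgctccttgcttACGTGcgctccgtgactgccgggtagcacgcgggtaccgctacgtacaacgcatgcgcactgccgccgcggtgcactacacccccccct
Pgam2 (chr11:5803822-5803966, minus strand): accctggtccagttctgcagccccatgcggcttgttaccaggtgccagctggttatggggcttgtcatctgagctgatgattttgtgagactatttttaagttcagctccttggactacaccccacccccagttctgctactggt
Ldha (chr7:46845634-46845778, plus strand): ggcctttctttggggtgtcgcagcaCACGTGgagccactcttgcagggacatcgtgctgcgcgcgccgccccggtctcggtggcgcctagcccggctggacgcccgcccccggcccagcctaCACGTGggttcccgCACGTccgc
Ldhb (chr6:142507983-142508127, minus strand): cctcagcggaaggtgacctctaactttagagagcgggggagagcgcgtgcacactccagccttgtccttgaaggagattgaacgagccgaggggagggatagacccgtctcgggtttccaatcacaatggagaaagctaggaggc
In Ldha the runs CACGTG at -145 and -48 are E-boxes, in which ACGTG reads on both strands, and a further match on the opposite strand begins at -34. Pgk1 holds 2 matches, the first from -150 to -146 and the second from -131 to -127. Hk2 holds a second match, from -226 to -222, outside the printed stretch. Ldhb and Pgam2 hold no ACGTG in their windows. The printed stretch of Ldhb does hold GCGTG, the form of the core that was not searched for. Those of Slc2a1 and Pgam1 hold CACGC, the complement of GCGTG.

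At glucose entry, the carriers split by type. Slc2a1, the carrier GLUT1 that many cells use for basal uptake, was at 19.8, 22.6 and 17.0 CPM in control and at 72.0, 64.3 and 61.3 CPM in GR-cKO. The lowest GR-cKO library stood well above the highest control library, a log2 fold change of 1.73 ± 0.11 (SE; edgeR, adjusted p = 6.46e-11). Slc2a3, the high-affinity carrier GLUT3, was scarce, at 3.54, 3.09 and 4.59 CPM in control and 12.5, 12.3 and 14.05 CPM in GR-cKO. Its log2 fold change of 1.79 ± 0.20 was the largest of the 35 genes. Slc2a4, the insulin-responsive carrier GLUT4 of muscle and fat, was at 50.3, 48.1 and 46.4 CPM in control and 51.8, 50.1 and 56.3 CPM in GR-cKO, with overlapping groups (adjusted p = 0.421, 95% interval of the log2 fold change -0.06 to 0.32). Slc2a8, an intracellular carrier, lay between 7.91 and 11.3 CPM in all 6 libraries. The summed level of the 4 carriers was 81.2 ± 2.77 CPM in the controls, against 142 ± 4.81 CPM with the receptor deleted (SD, n = 3 each).

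Within these 4 carriers Slc2a1 supplied 24.4% ± 3.02 of the counts in control and 46.3% ± 2.64 in GR-cKO, and Slc2a4 supplied 59.4% ± 0.643 and 37.2% ± 2.57 (SD, n = 3 each). Slc2a4 was thus the most counted carrier in each control library, and Slc2a1 in each GR-cKO library. Because the method reads a tag at the 3' end, counts of different genes were compared without scaling by length. Such shares need no scaling factor, and with 3 libraries against 3 an exact permutation test of a share cannot go below p = 0.1, which is the value for both.

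**Figure D2:**
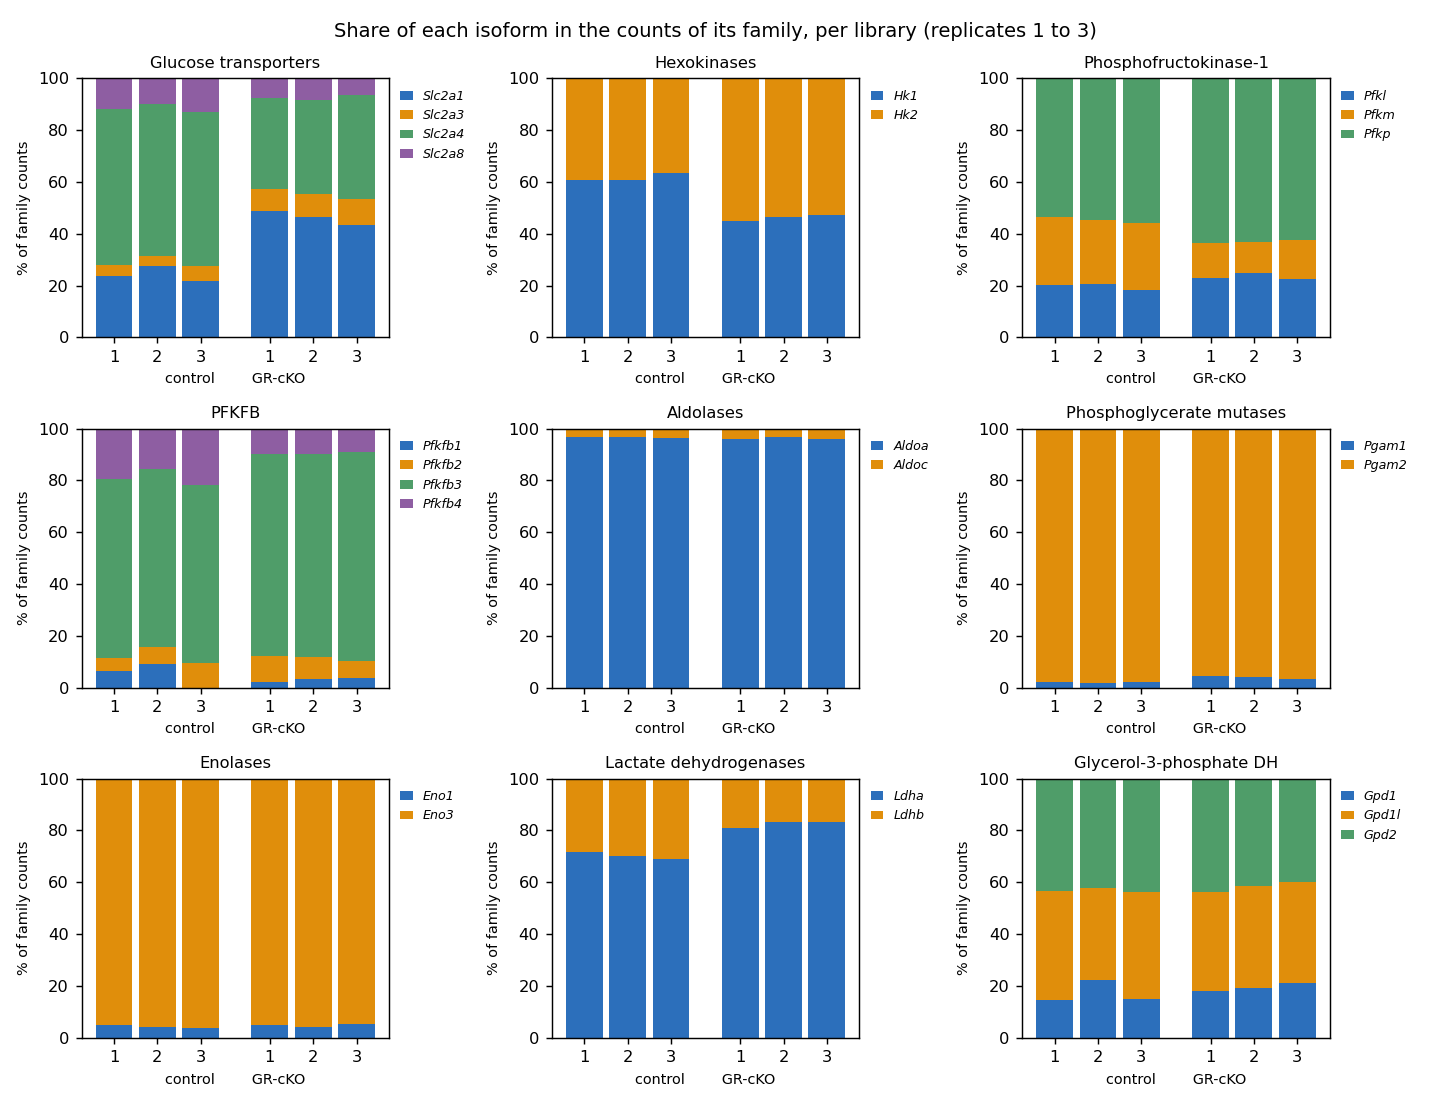
Share of each isoform in the summed counts of its family (percent, vertical axis) in each of the 6 libraries, 1 stacked bar per library and 1 panel per family. The share of Slc2a1, Hk2, Pfkp and Ldha is larger in all 3 GR-cKO libraries than in any control library, while the panels of the aldolases and enolases look alike in both groups.

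Both hexokinases, which trap glucose as its phosphate, rose, and Hk2 by more. Hk2, the form that responds to insulin in muscle and heart, was at 132, 147 and 129 CPM in control and at 351, 343 and 336 CPM in GR-cKO (log2 fold change 1.34 ± 0.07, edgeR adjusted p = 2.07e-12). Hk1, the widespread form that binds mitochondria, was at 204, 227 and 223 CPM in control and at 286, 296 and 300.3 CPM in GR-cKO (0.43 ± 0.07, adjusted p = 5.45e-05), the smallest rise among the 16. The 95% intervals of the log2 fold changes were 1.19 to 1.48 for Hk2 and 0.29 to 0.57 for Hk1. Hk2 supplied 38.4% ± 1.54 of hexokinase counts in the controls, against 53.9% ± 1.21 in GR-cKO (exact permutation p = 0.1, n = 3 each). Hk1 was the more counted form in the 3 control libraries and Hk2 in the 3 GR-cKO libraries.

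Gpi1, which turns glucose phosphate into fructose phosphate, was at 241, 221 and 218 CPM in control and at 395, 387 and 338 CPM in GR-cKO. The groups did not overlap, and it rose 1.65-fold (edgeR adjusted p = 1.06e-07).

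Phosphofructokinase-1 commits the sugar to glycolysis and is built from 3 kinds of subunit. The liver-type subunit Pfkl was at 38.6, 38.4 and 34.9 CPM in control and at 79.9, 90.2 and 73.2 CPM in GR-cKO (log2 fold change 1.12 ± 0.10, edgeR adjusted p = 6.39e-09). The platelet-type subunit Pfkp was at 103, 102 and 106 CPM in control and at 220, 229 and 203 CPM in GR-cKO (1.07 ± 0.07, adjusted p = 1.31e-10). For both, the lowest GR-cKO library was far above the highest control library. The muscle-type subunit Pfkm was at 50.4, 45.8 and 48.6 CPM in control and at 45.9, 43.9 and 49.0 CPM in GR-cKO, with overlapping groups (adjusted p = 0.751, 95% interval -0.25 to 0.13). Its share of the subunit counts was 25.5% ± 0.845 in control and 13.5% ± 1.49 in GR-cKO, while that of Pfkp was 54.8% ± 1.15 and 63.1% ± 0.585 and that of Pfkl 19.7% ± 1.15 and 23.5% ± 1.2 (exact permutation p = 0.1 for each, n = 3 each). Pfkp shares 748 exonic bases with Pitrm1 on the opposite strand, and the strand setting of the counting is not given in the sources used here. The total count of Pitrm1 over the 6 libraries was 3136, against 19908 for Pfkp.

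The PFKFB enzymes make and remove fructose 2,6-bisphosphate, the strongest activator of phosphofructokinase-1. Pfkfb3, the isoform with the highest kinase activity, was at 10.2, 12.9 and 12.4 CPM in control and at 21.9, 24.1 and 23.6 CPM in GR-cKO (log2 fold change 0.97 ± 0.14, edgeR adjusted p = 1.69e-05). It supplied 69.02% ± 0.23 of the PFKFB counts in the controls, against 79.1% ± 1.42 in GR-cKO. Pfkfb2, the heart isoform, was at 0.718 to 1.68 CPM in control and at 2.01 to 2.84 CPM in GR-cKO. Its groups did not overlap, but it did not pass (log2 fold change 1.06 ± 0.45, adjusted p = 0.122). Pfkfb4 lay between 2.62 and 3.95 CPM and Pfkfb1, the liver and muscle isoform, between 0 and 1.73 CPM. Tigar, a phosphatase that removes fructose 2,6-bisphosphate, was at 15.1 to 19.7 CPM in control and 15.4 to 18.0 CPM in GR-cKO (adjusted p = 0.871). Pfkfb1, Pfkfb2 and Pfkfb4 are so scarce that even a large difference would be hard to see: the 95% interval for Pfkfb1 ran from -1.62 to 1.52 on the log2 scale. Pfkfb1 and Pfkfb2 also share exonic bases with Apex2 and Yod1 on the opposite strand. Summed over all libraries, Apex2 held 775 counts against 110 for Pfkfb1, and Yod1 held 1184 against 228 for Pfkfb2.

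All 3 genes of the splitting and triose steps rose. Aldoa, the main aldolase of muscle, was at 525, 444 and 467 CPM in control and at 862, 858 and 791 CPM in GR-cKO (log2 fold change 0.81 ± 0.07, edgeR adjusted p = 6e-09). Aldoc, the form best known from brain, was far scarcer, at 18.5, 15.1 and 16.9 CPM in control and 36.3, 30.6 and 32.9 CPM in GR-cKO (0.99 ± 0.12, adjusted p = 2.52e-06). Its share of aldolase counts, 3.39% ± 0.099 in control and 3.83% ± 0.333 in GR-cKO, overlapped between the groups (exact permutation p = 0.2, n = 3 each). Tpi1, which interconverts the triose phosphates, was at 224, 244 and 244 CPM in control and at 474, 496 and 501 CPM in GR-cKO, 2.07-fold higher (adjusted p = 3.86e-11).

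**Figure D3:**
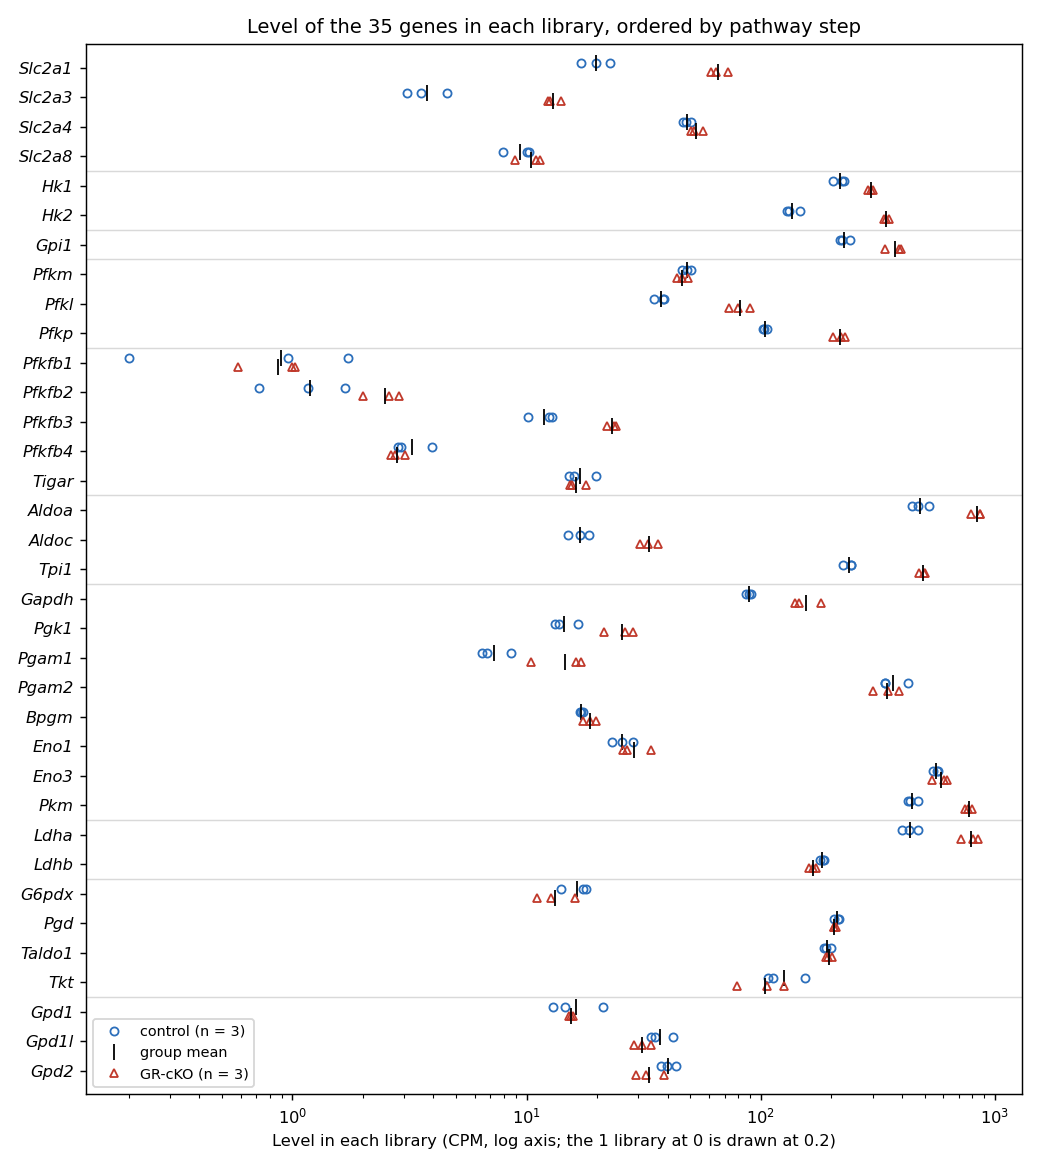
Level of each of the 35 genes in each library (CPM on a log axis), with control libraries as blue circles, GR-cKO libraries as red triangles and the group means as black ticks. Circles and triangles stand apart for the risers, for example at 19.8, 22.6 and 17.0 against 72.0, 64.3 and 61.3 CPM for Slc2a1, and mix for Pfkm, Pgam2, Eno3 and Taldo1.

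In the payoff phase, where ATP and pyruvate are made, 4 of 8 genes rose. Gapdh, which oxidises glyceraldehyde phosphate, was at 91.0, 86.2 and 89.2 CPM in control and at 146, 140 and 180.4 CPM in GR-cKO (log2 fold change 0.81 ± 0.09, edgeR adjusted p = 3.37e-07). Pgk1, which makes the first ATP, was at 13.7, 13.2 and 16.5 CPM in control and at 26.4, 21.4 and 28.6 CPM in GR-cKO (0.81 ± 0.14, adjusted p = 0.00018). Pkm, the pyruvate kinase of muscle and most other tissues, was at 467, 431 and 425 CPM in control and at 747, 799 and 768 CPM in GR-cKO (0.81 ± 0.06, adjusted p = 1.59e-09). Each of these 3 genes was higher in every GR-cKO library than in any control library. The 3' counts do not separate the M1 and M2 splice forms of Pkm.

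The mutase step held a scarce riser beside an abundant gene that did not pass. Pgam1, the widespread phosphoglycerate mutase, was at 8.57, 6.46 and 6.76 CPM in control and at 16.3, 17.1 and 10.4 CPM in GR-cKO (log2 fold change 1.01 ± 0.20, edgeR adjusted p = 0.00063). GR-cKO replicate 3 was lower than the other GR-cKO libraries but above all controls. Pgam2, the muscle form, was at 424, 338 and 339 CPM in control and at 349.6, 388 and 301 CPM in GR-cKO, with overlapping groups (adjusted p = 0.631, 95% interval -0.27 to 0.10). Pgam2 supplied 98.1% ± 0.0553 of the mutase counts in the controls, against 96.0% ± 0.583 in GR-cKO, so their sum, at 374 ± 50.6 and 361 ± 46.8 CPM, was close in both groups (exact permutation p = 0.7, n = 3 each). Bpgm, which makes 2,3-bisphosphoglycerate, lay between 16.9 and 19.9 CPM in all 6 libraries (adjusted p = 0.628).

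Neither enolase passed. Eno3, the muscle form, was at 545, 569 and 563 CPM in control and at 540, 608 and 624 CPM in GR-cKO (adjusted p = 0.5, edgeR; 95% interval of the log2 fold change -0.06 to 0.21). Eno1, the widespread form, was at 28.5, 25.4 and 23.0 CPM in control and at 26.8, 25.7 and 34.1 CPM in GR-cKO (adjusted p = 0.449). The groups overlapped for both, and Eno3 supplied 95.6% ± 0.522 and 95.3% ± 0.568 of the counts of the pair (exact permutation p = 0.6, n = 3 each). The 95% interval of Eno3 excludes a rise of the size seen for Gapdh, Pkm or Aldoa.

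The levels of Aldoa, Tpi1, Gapdh, Pgk1, Pgam1, Eno1, Ldha and G6pdx relative to other genes are uncertain. These genes have close copies in the genome, and how multi-mapping reads were handled is not given in the sources used here. The isoform shares and summed levels of the aldolases, mutases, enolases and lactate dehydrogenases rest on these levels and are uncertain too. For the mutases and enolases, so is which isoform was most counted. The annotated copies held few counts over the 6 libraries: 106 in 2 copies of Gapdh against 15095 in the gene itself, and 2 in Eno1b against 3376 in Eno1. The copies of Aldoa held 19 against 81621 and those of Ldha 1 against 75683. Those of Tpi1, Pgk1, Pgam1 and G6pdx held 0. These low counts do not settle the matter, because reads that match a gene and its copy equally may have been dropped.

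At the end of the pathway the isoforms of lactate dehydrogenase diverged. Ldha, the form that favours lactate production, was at 467, 431 and 401 CPM in control and at 719, 847 and 805 CPM in GR-cKO (log2 fold change 0.87 ± 0.07, edgeR adjusted p = 3.76e-09). Ldhb, the heart form, was at 186, 184 and 179 CPM in control and at 167, 172 and 161 CPM in GR-cKO. Its groups did not overlap either, but it did not pass (-0.14 ± 0.07, adjusted p = 0.214). Ldha supplied 70.3% ± 1.21 of the counts of the pair in the controls, against 82.6% ± 1.22 in GR-cKO (exact permutation p = 0.1, n = 3 each). Pfkfb2 and Ldhb were the only members whose groups did not overlap without passing the test, so 18 of the 35 genes had groups that did not overlap, against 29.9% of all genes tested.

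The pentose phosphate enzymes did not pass in either direction, with 1 of 4 lower at an unadjusted p below 0.05 (13.0% of all genes tested) and none called by DESeq2. G6pdx, the entry enzyme that makes NADPH, was at 17.9, 17.5 and 13.96 CPM in control and at 11.1, 16.0 and 12.7 CPM in GR-cKO (log2 fold change -0.31 ± 0.16, edgeR adjusted p = 0.231). Pgd, which makes the second NADPH, was at 206, 216 and 213 CPM in control and 209, 205 and 205 CPM in GR-cKO. Taldo1, a transaldolase of the branch that returns carbon to glycolysis, was at 187, 199 and 189 CPM in control and 194, 202 and 190.4 CPM in GR-cKO. The 95% intervals of the log2 fold changes were -0.17 to 0.10 for Pgd and -0.11 to 0.17 for Taldo1, far below the rises of the glycolytic genes of like abundance. Tkt, the transketolase, varied more, at 155, 113 and 107 CPM in control and 106, 126 and 79.2 CPM in GR-cKO (-0.27 ± 0.13, adjusted p = 0.189). Its value depended on single libraries: the log2 fold change was -0.09 without control replicate 1, -0.10 without GR-cKO replicate 3 and -0.43 without GR-cKO replicate 2, where Tkt was called lower (adjusted p = 0.0432). Tkt was also called lower without a filter on low counts (0.0154). G6pdx shares 418 exonic bases with Ikbkg on the opposite strand. The total count of Ikbkg over the 6 libraries was 2676, against 1844 for G6pdx, so the level of G6pdx is uncertain while the strand setting is not known.

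The glycerol-3-phosphate dehydrogenases also did not pass, with 2 of 3 lower at an unadjusted p below 0.05 (13.0% of all genes tested) and none called by DESeq2. Gpd1, the cytosolic enzyme, lay between 12.9 and 21.2 CPM in control and between 15.2 and 15.8 CPM in GR-cKO. Gpd1l, its relative known for an effect on the cardiac sodium channel, was at 42.1, 33.8 and 35.4 CPM in control and at 33.9, 31.0 and 28.8 CPM in GR-cKO (log2 fold change -0.25 ± 0.11, edgeR adjusted p = 0.15). Gpd2, the mitochondrial enzyme of the shuttle, was at 43.5, 39.9 and 37.3 CPM in control and at 38.4, 32.4 and 29.3 CPM in GR-cKO (-0.27 ± 0.11, adjusted p = 0.117). The groups overlapped for all 3 genes. Gpd2 was called lower without GR-cKO replicate 1 (log2 fold change -0.38, adjusted p = 0.0446). The shares of the 3 genes in their sum overlapped between the groups (exact permutation p = 0.5, 0.9 and 0.4 for Gpd1, Gpd1l and Gpd2, n = 3 each).

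**Figure D4:**
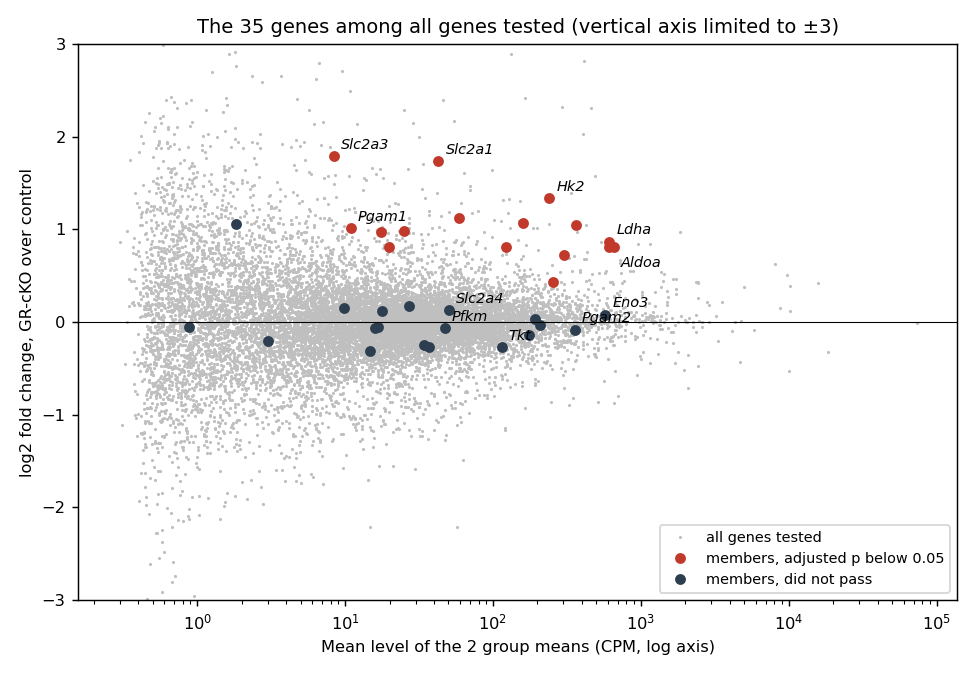
Mean level (CPM, log axis) and log2 fold change of all 14386 genes tested (grey) with the 16 members that rose (red) and the 19 that did not pass (dark); the vertical axis is limited to ±3. The red points keep to a band between 0.43 and 1.79 from scarce genes such as Slc2a3 to abundant ones such as Aldoa, and Eno3 and Pgam2 lie near 0 among the abundant genes.

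Of 47 other genes of glucose use, 25 had enough counts to be tested, and 3 rose and 2 fell, against 7.63% and 7.19% of all genes. Eno2, the neuronal enolase, was scarce and rose from 1.97 ± 0.491 to 4.64 ± 1.24 CPM (n = 3 each; edgeR adjusted p = 0.0108), a call that was lost without GR-cKO replicate 3 (0.0815). Pck2, the mitochondrial enzyme that makes phosphoenolpyruvate, was at 47.6, 42.8 and 47.1 CPM in control and at 65.1, 64.3 and 67.2 CPM in GR-cKO (log2 fold change 0.52 ± 0.09, adjusted p = 0.000157). Tbc1d4 and Tbc1d1 are related proteins that hold GLUT4 inside the cell until insulin or exercise releases it. Tbc1d4 had a log2 fold change of 0.31 ± 0.10 (adjusted p = 0.0414) and Tbc1d1 one of -0.28 ± 0.09 (adjusted p = 0.0463). Rpia, which makes ribose phosphate in the pentose phosphate pathway, was at 16.8, 17.5 and 12.1 CPM in control and 11.1, 11.3 and 9.52 CPM in GR-cKO (-0.54 ± 0.17, adjusted p = 0.0307). Leaving out 1 library ended the call of Tbc1d1 in 5 of 6 cases, of Rpia in 5 of 6 and of Tbc1d4 in 5 of 6, while Pck2 passed in all 6. None of the 5 other hexose carriers tested and none of 5 enzymes of the polyol, fructose and hexosamine routes passed (edgeR), and none had an unadjusted p below 0.05 or was called by DESeq2. Txnip, which restrains glucose uptake, was at 321, 324 and 474 CPM in control and 485, 422 and 460 CPM in GR-cKO (adjusted p = 0.0618). Control replicate 3 was as high as the GR-cKO libraries: without it the log2 fold change was 0.50 (adjusted p = 9.09e-05), while without control replicates 1 and 2 it was 0.19 and 0.20 (0.277 and 0.318). Txnip was also called higher without a filter on low counts (0.000462), but not by DESeq2 (0.449). Among the listed genes at 0 in all 6 libraries were Gapdhs, Pgk2, Pklr, Ldhc, Fbp1, Fbp2, Pck1 and G6pc, which allows up to 0.135 to 0.154 CPM in a library at 3 counts.

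Markers of cell types differed between the groups as well. For comparison, 7.63% of all genes tested were higher and 7.19% lower. All 12 cardiomyocyte markers were present, and their summed level was 36474 to 38097 CPM in control and 45339 to 47829 CPM in GR-cKO (7 higher, 2 lower). Of 10 fibroblast markers 5 were higher and 1 lower, with sums of 3670.5 to 3874 and 4787 to 4913 CPM. Of 10 endothelial markers 8 were higher and 1 lower, with sums of 1043 to 1086 and 1319 to 1411 CPM. Of 9 smooth muscle and pericyte markers 5 were higher, with sums of 3626 to 3729 and 4250.4 to 4464 CPM. Most of these sums was Acta2, at 3239 to 3349 CPM in control and 3717 to 3950 CPM in GR-cKO. The 4 that did not pass, Myh11, Tagln, Kcnj8 and Abcc9, had log2 fold changes of -0.60, -0.23, -0.15 and -0.03. Leukocyte markers were scarce, with sums of 14.1 to 18.4 and 35.7 to 56.0 CPM. Of 10 listed, 6 could be tested and 2 rose, and Ptprc was at 0 in 2 control libraries. Of 7 epicardial markers 2 rose and 2 fell, with sums of 101 to 106 and 94.9 to 114 CPM, and of 6 erythroid markers 2 could be tested, with sums of 1.31 to 3.21 and 3.52 to 4.99 CPM. The part of these cell types in the rise of the glycolytic genes was not tested. In such bulk samples a change in the number of cells of a type and a change in RNA per cell cannot be told apart.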

How the data were processed

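RNA of 3 control and 3 GR-cKO cultures (100 ng of total RNA each) was read with QuantSeq 3' libraries in the forward orientation, per the labels' protocols. The authors deposited a table of raw counts per gene for each library. Build GRCm38 and the tools featureCounts 1.6.2, STAR 2.5.4a and cutadapt 1.16 are named among others in the submitters' processing notes. Neither the strand setting nor the handling of multi-mapping reads is given in the sources used here. Each table held 52649 rows: 52550 genes, 92 ERCC and 7 SIRV spike-ins. Spike-ins, 1.98% to 2.36% of all counts, were left out of library sizes and of the tests. GENCODE release M21 gave names to 52403 genes. Aldoa names 2 rows, of which the second is at 0 in all libraries and was not used.

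Counts were tested with edgeR 4.0.16 (R 4.3.3): TMM factors, default filter on low counts, quasi-likelihood test of GR-cKO against control, Benjamini-Hochberg adjustment, threshold 0.05. CPM are scaled by TMM factors. Standard errors are the log2 fold change over the root of F. The 95% intervals use the total degrees of freedom of the test, which are the residual ones plus those gained by sharing information on spread across genes. On counts simulated for this comparison over 14386 genes, with 50 genes changed at each size, the test called 20% of genes changed 1.25-fold, 44% at 1.5-fold, 82% at 2-fold and 86% at 3-fold, with 5 false calls. In the data themselves 2132 genes were called, far more than were changed in the simulation. The adjustment depends on that number, so these shares need not hold for the real comparison. Within each group, libraries differed beyond sampling noise (mean chi-square 7.57 to 15.3 per gene), and all 6 were treated as separate. Libraries made from a shared pool of cells could differ in this way too, so this does not show that they are independent. The labels call them biological replicates without naming animals or litters, so the p-values reflect only how these libraries vary, and part of that may be technical. Limits at a count of 0 cover counting error only.

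The members and gene lists were chosen with earlier results of these data known. The rule for named genes took all 35 members by step, each other pathway gene that passed, and Nr3c1. Txnip, the genes at 0, Ptprc and the overlapping genes were named after their values were seen. Lists of markers for cardiomyocytes, fibroblasts, endothelium, smooth muscle and pericytes, leukocytes, epicardium and erythroid cells were set with them. Alternatives were DESeq2 1.42.0 (size factors and test), no filter, ERCC scaling, no X and Y genes, a replicate block, leaving out each library, and adding annotated copies to their parent genes.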

Additional observations from a re-analysis of the deposited data

How the results depend on the processing

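The same 16 genes rose under every alternative run, except that Pgk1, being on the X chromosome, was not tested without chromosomes X and Y, where 15 rose. The count of members lower was 1 in place of 0 with no filter on low counts (Tkt), with the replicate block (Tkt), and it ranged from 0 to 1 when 1 library was left out (Tkt without GR-cKO replicate 2, Gpd2 without GR-cKO replicate 1). The count of other pathway genes higher was 3, and 4 with no filter on low counts and with the replicate block. When 1 library was left out, it ranged from 1 (without GR-cKO replicate 3) to 4 (without control replicate 3). The count of other pathway genes lower was 2, fell to 1 with the DESeq2 test and with no filter, and to 0 with ERCC scaling. It ranged from 0 to 1 without 1 library. Of single genes, Tbc1d1 was not called with the DESeq2 test, with no filter or with ERCC scaling, and Rpia not with ERCC scaling.

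With ERCC scaling the median of all genes moved from -0.01 to 0.09 and that of the members from 0.17 to 0.27. The members' median was also 0.37 with the replicate block, 0.30 without chromosomes X and Y and 0.22 to 0.46 without 1 library, while that of all genes stayed within 0.01 of 0 under these. With ERCC scaling, 6 members that had not passed changed sign, still without passing: Pfkm (0.0334), Pfkfb1 (0.0524), Tigar (0.0378), Pgam2 (0.014), Pgd (0.0559) and Gpd1 (0.0286). Pfkfb1 was also at 0.37 with the replicate block. When 1 library was left out, the log2 fold change ranged from -0.63 to 0.84 for Pfkfb1, from -0.13 to 0.0686 for Tigar, from -0.17 to 0.0338 for Pgam2 and from -0.21 to 0.17 for Gpd1. The cause was not tested. Deviations of same-numbered libraries correlated at -0.000102, 0.0366 and 0.0195. These values gave no sign that the numbers pair the libraries, but they cannot exclude it. Over all genes tested, the replicate block called 1201 higher and 1152 lower, against 1097 and 1035 without it. With the replicate block 16 members were higher, Tkt was called lower (adjusted p = 0.0308) and Txnip higher (0.00239). No share of an isoform moved by more than its spread without 1 library. Depth limits the statements on Pfkfb1, Pfkfb2, Pfkfb4 and Eno2.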
